A study of Mus musculus with 6 samples.

Results

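The genes described here are the Bcl2 family, the caspases and their close regulators in mouse hippocampus (HIPP), 44 of the 16060 rows of the deposited expression table. They were chosen by gene symbol alone: every symbol that begins with Bcl2, the caspases named Casp with a number, and Bax, Bak1, Bok, Bad, Bid, Bik, Bbc3, Bmf, Mcl1, Apaf1, Cycs, Diablo, Htra2, Endog, Aifm1 to Aifm3, Xiap, the Birc genes, Cflar and Fadd. The series holds 6 hippocampal libraries, 3 labelled Control and 3 labelled MA, each from a separate mouse. All mice were adult male C57BL/6 of 22 to 25 g. The MA group had received methamphetamine (MA), a psychostimulant, in escalating doses of 5, 10 and 15 mg/kg in successive weeks over 3 weeks, and the Control group had received intraperitoneal saline. Mice of both groups went through behavioral tests on day 22 and were killed directly afterwards. A library holds the RNA of the whole structure, so fewer cells of a type and less RNA per cell cannot be told apart in any value below.

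The intrinsic pathway of apoptosis is decided at the outer membrane of the mitochondrion. Anti-apoptotic proteins such as Bcl2, Bcl2l1 (Bcl-xL) and Mcl1 hold the pore-forming proteins Bax and Bak1 in check, and the BH3-only proteins relieve that block when a cell is damaged. Once the membrane is permeable, cytochrome c (Cycs) leaves the mitochondrion, joins Apaf1 into the apoptosome and activates Casp9, which starts the caspase cascade. Inhibitor of apoptosis proteins such as Xiap restrain the caspases, and Diablo and Htra2, also released from mitochondria, relieve that restraint. A separate route runs from death receptors through Fadd and Casp8, with Cflar as its brake. Apaf1 is known to be lower in the adult brain than in the developing one, and several members also have roles outside cell death.

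The values are on a log2 scale, read as log2(RPKM + 1), where RPKM is the number of reads scaled to gene length and library size. A difference is always MA minus Control group means on that scale, and it understates the change of low genes. Of the 44 genes, 37 reached 0.5 RPKM in 3 or more libraries and were tested, among 13321 genes in all. Read depth is unknown because the table holds no counts. Identical values recur between libraries, such as 6.47447 for Bax in Control replicate 1 and for Cycs in Control replicate 3. All libraries also share a maximum of 12.2976. The libraries thus appear to have been set to a common distribution, and levels given below in RPKM are approximate. Immediate early genes, which neuronal activity induces, were lower in the libraries labelled MA, where Fos was 2.69, 2.22 and 2.22, than in those labelled Control, where it was 4.30, 3.78 and 3.89. The paper, in contrast, reports immediate early genes, Fos among them, as upregulated by MA. Column labels and paper thus disagree, and which columns hold the MA libraries is in doubt. Every direction given here follows the labels, and all signs would be reversed if the labels were exchanged. The library of MA replicate 3 stood apart, with a mean Pearson correlation across genes of 0.978 with the other MA libraries, against 0.984 to 0.993 for the remaining libraries within their groups. All 8 neuronal, 6 astrocyte and 8 microglial markers were present, and none of these markers passed the adjusted threshold. Differences were below 0 for all 6 astrocyte, 5 of 8 microglial and 5 of 8 neuronal markers. The astrocyte gene Aqp4 (limma adjusted p = 0.458) and the microglial gene Tmem119 (limma adjusted p = 0.679) were lower in each MA library. Of these, only Aqp4 passed the unadjusted threshold. The groups overlapped for the other markers of these cell types. Of 6 oligodendrocyte markers, 5 had differences below 0, none past the unadjusted threshold. All 4 endothelial markers had differences above 0, with Cldn5 (limma adjusted p = 0.241, groups separate) and Slco1a4 (limma adjusted p = 0.413, groups overlapping) past the unadjusted threshold, and the list summed to 53.2 to 58.2 RPKM in Control and 62.5 to 88.3 RPKM in MA. All 7 choroid plexus markers were higher in each MA library than in each Control library, and 4 of them passed the adjusted threshold (limma). Their summed back-transformed levels were 65.6 to 421 RPKM in Control and 1777 to 5079 RPKM in MA. All 5 erythroid markers were also higher, and 3 of them passed the adjusted threshold (limma). Their sums were 1599 to 2024 RPKM in Control and 3319 to 4378 RPKM in MA.

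After Benjamini-Hochberg adjustment of the limma p-values over all 13321 genes, 0 of the 37 tested apoptosis genes fell under 0.05, a threshold that 0.263% of all tested genes passed. At an unadjusted p-value under 0.05 there were 4 of 37 genes, or 10.8%, against 10.4% of all tested genes. Cflar, Aifm3 and Htra2 were the 3 genes higher in MA, and Mcl1 was the gene lower in MA. The background was 4.99% of tested genes for higher and 5.46% for lower values. The 3 libraries of a group lay entirely to 1 side of the other group for 7 of 37 genes, or 18.9%, where the share over all tested genes was 17.5%. These were 4 genes higher in MA (Cflar, Aifm3, Htra2 and Aifm2), or 10.8% against 7.32%, and 3 lower (Mcl1, Bid and Cycs), or 8.11% against 10.2%. The apoptosis genes were thus called, and separated without overlap, about as often as any tested gene. Their median difference was -0.0076, with 17 genes higher and 20 lower, and the median over all tested genes was -0.010. The median size of the difference, regardless of sign, was 0.11 for the apoptosis genes and 0.11 for all tested genes.

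**Figure D1:**
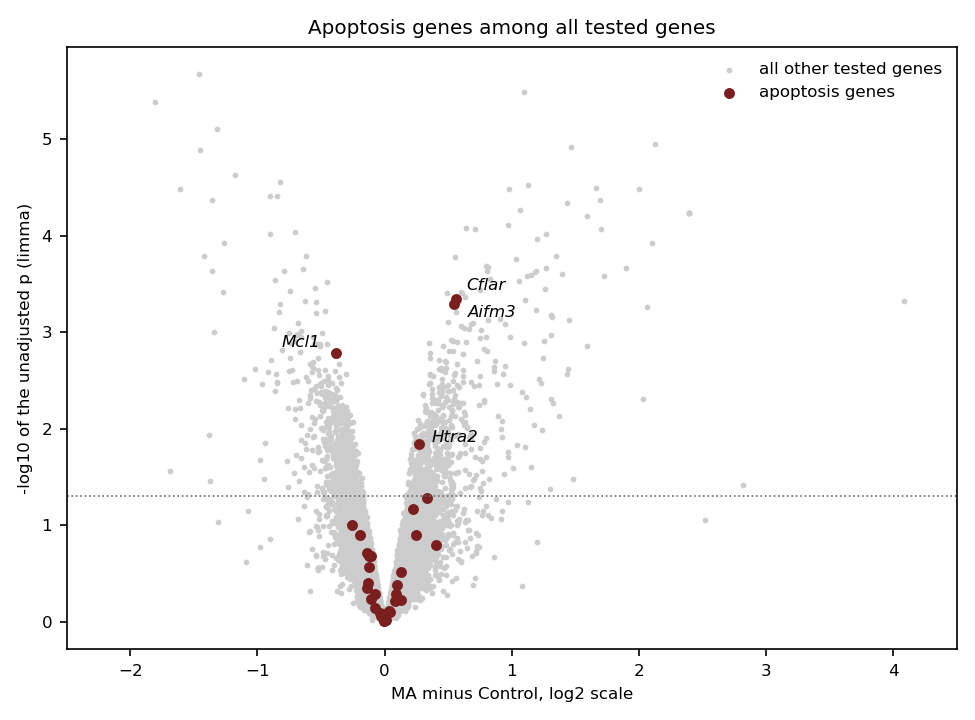
Difference between MA and Control on the log2 scale (horizontal axis) against -log10 of the unadjusted limma p (vertical axis) for the tested genes, with 35 apoptosis genes in dark red and the dotted line at an unadjusted p of 0.05. Only Cflar, Aifm3, Htra2 and Mcl1 lie above the line among the apoptosis genes, and genes with larger differences surround them.

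The precision of the comparison can be read from the intervals. For 31 of the 37 genes the 95% interval of the difference lay within 1.5-fold in either direction (78.3% of all tested genes). For 6 genes, or 16.2% against 24.4% of all tested genes, it lay within 0.32 of 0 on the log2 scale, and among these were Endog, Cycs, Casp2, Birc2 and Bcl2l11. With a pseudocount of 0.1 in place of 1, the count within 1.5-fold was 19. With the offset of 1, the genes with intervals inside 1.5-fold included Bcl2, Bcl2l1, Bax, Bak1, Casp8 and Casp9. That offset narrows the intervals of low genes such as Bcl2, Casp8 and Bcl2l11. With a pseudocount of 0.1 the differences of Bcl2 and Casp8 were -0.30 and -0.21, in place of -0.19 and -0.12. Their place inside 1.5-fold may therefore rest on the offset. The upper end passed 1.5-fold for Cflar, Aifm3, Aifm2, Apaf1, Casp6 and Bcl2l13.

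**Figure D2:**
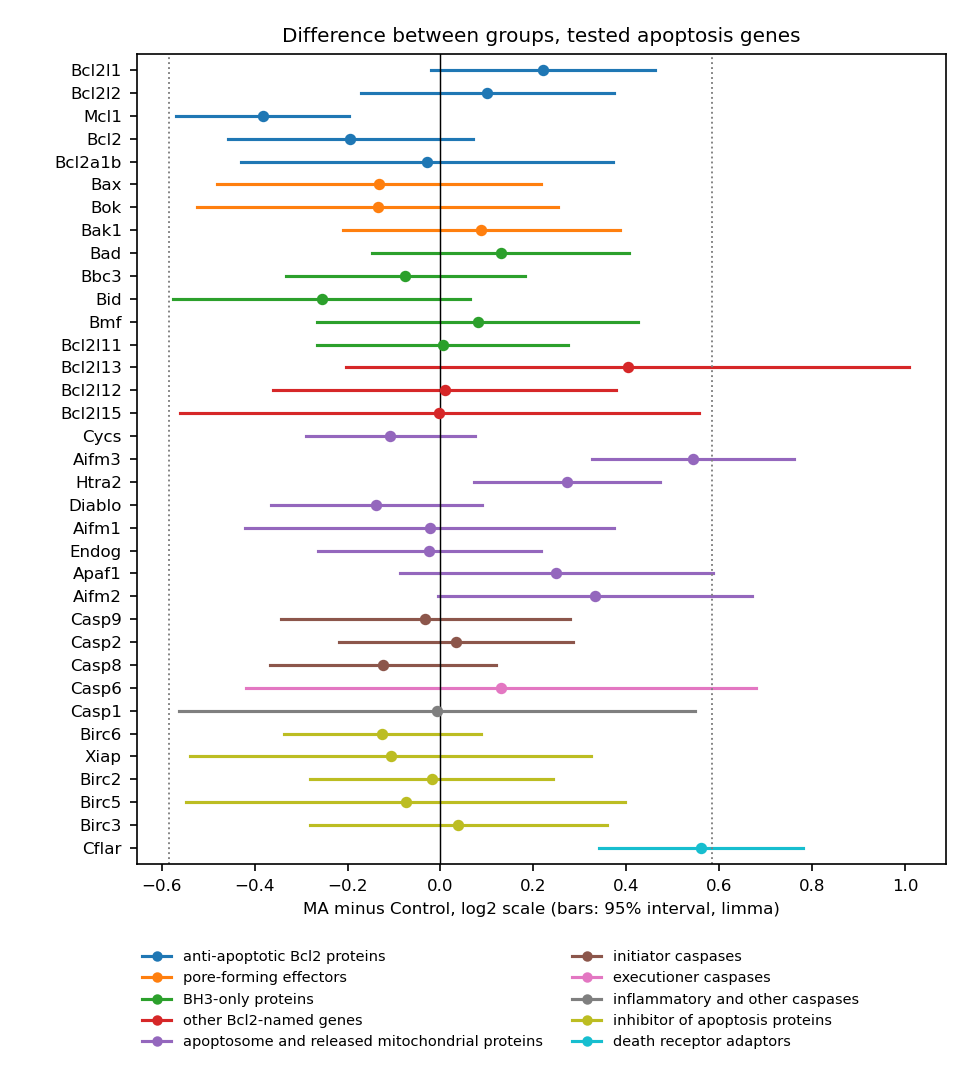
Difference between MA and Control on the log2 scale for 35 of the tested apoptosis genes (points), with the 95% interval from limma (bars) and colors for the role of the gene. Dotted lines mark 1.5-fold in either direction. The intervals of 4 genes lie clear of 0, those of Cflar, Aifm3 and Htra2 above it and that of Mcl1 below it.

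Levels per gene length covered a wide range. Bax, with a mean of 84.8 RPKM over the 6 libraries, Cycs with 82.9 RPKM and Bok with 70.6 RPKM were the most abundant. Next came the anti-apoptotic Bcl2l1 and Bcl2l2 (Bcl-w) with 48.2 and 38.1 RPKM, and the BH3-only gene Bad with 37.6 RPKM. Bcl2 itself was low at 1.62 RPKM, below Mcl1 at 19.7 RPKM. The caspases named here lay low as well, from 5.08 RPKM for Casp9 down to 0.252 RPKM for Casp12. In every library, Bax, Cycs, Bok, Bcl2l1 and Bcl2l2 each had a higher level than any of these caspases.

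**Figure D3:**
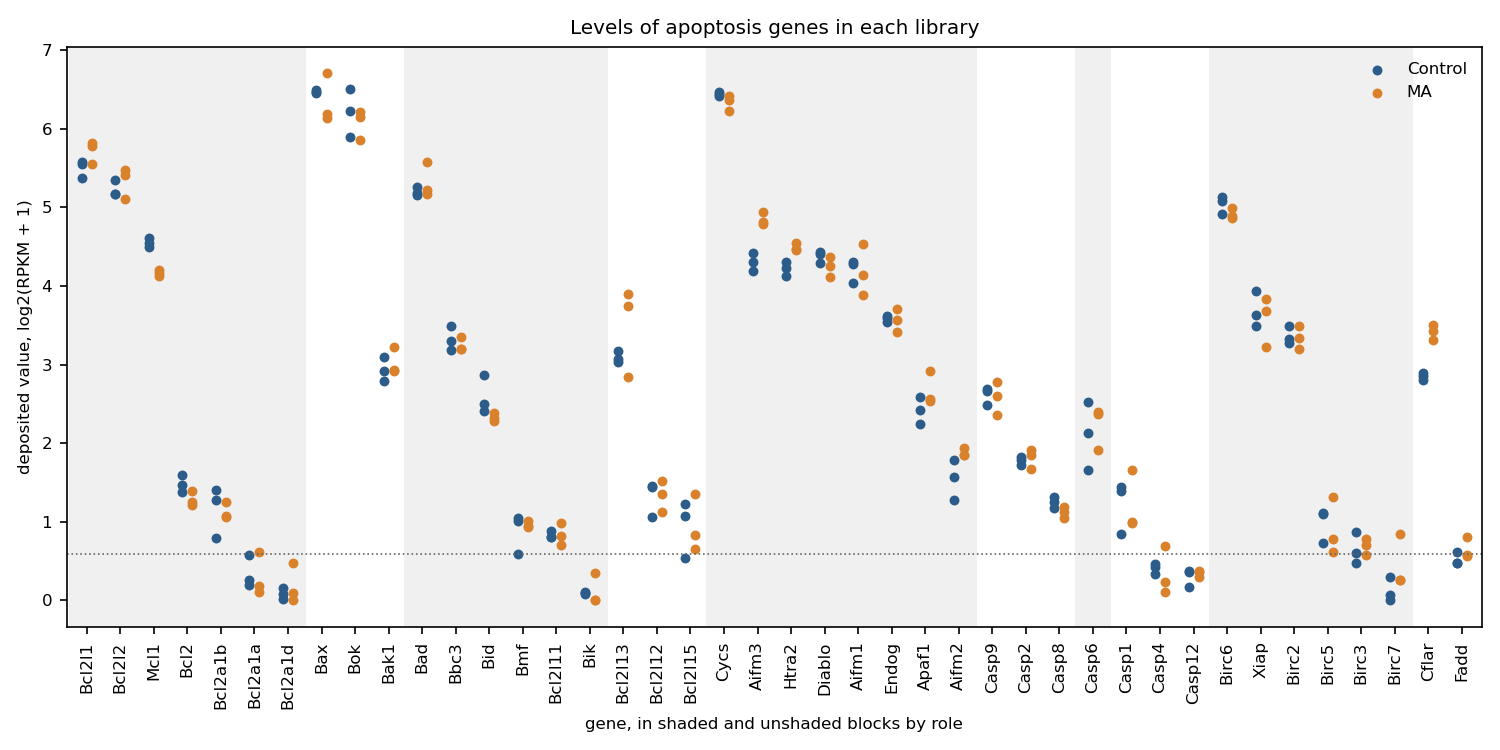
Deposited value of 42 of the genes in each library, as log2(RPKM + 1), for Control (blue) and MA (orange), with genes in alternating blocks from the anti-apoptotic genes on the left to the death receptor adaptors on the right. The dotted line marks 0.5 RPKM, the value used in the filter. Bax, Cycs and Bok are at the top, and Bcl2, the caspases and Fadd lie in the lower part.

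Among the anti-apoptotic genes, Mcl1 alone passed the unadjusted threshold. Mcl1, a short-lived guardian protein that neurons depend on for survival, had values of 4.61, 4.49 and 4.55 in Control replicates 1 to 3 and of 4.17, 4.21 and 4.13 in MA replicates 1 to 3. Each MA library was below each Control library, and the groups were separated by more than their own spread. The difference was -0.38 (standard error 0.08, 95% interval -0.57 to -0.20, limma adjusted p = 0.166). On the linear scale this corresponds to group means of 22.4 RPKM in Control and 17.0 RPKM in MA.

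Bcl2l1 encodes Bcl-xL, the main anti-apoptotic family member of adult neurons. Its values were 5.38, 5.58 and 5.55 in Control and 5.79, 5.83 and 5.55 in MA, where only replicate 3 fell inside the Control range. The difference was 0.22 (standard error 0.10, limma adjusted p = 0.520). Bcl2, the founding member of the family, had values of 1.38, 1.47 and 1.60 in Control and 1.40, 1.248 and 1.21 in MA. The groups overlapped through MA replicate 1, with a difference of -0.19 (standard error 0.11, limma adjusted p = 0.609). Bcl2l2 overlapped too, with values from 5.17 to 5.35 in Control and from 5.11 to 5.47 in MA. Part of its exonic sequence, 13.3%, is shared with another annotated gene on the same strand. Bcl2a1b, Bcl2a1a and Bcl2a1d are near-identical copies of the A1 gene between which reads could be split, and their values are uncertain. Bcl2a1b lay between 0.80 and 1.401 in all libraries, and the other two copies did not pass the filter.

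The pore-forming effectors did not separate the groups. Bax, whose protein perforates the mitochondrial outer membrane, had values of 6.47, 6.46 and 6.49 in Control and 6.14, 6.19 and 6.71 in MA. The Control libraries were close together, whereas MA replicates 1 and 2 lay below all of them and MA replicate 3 above. The difference was -0.13 (standard error 0.15, limma adjusted p = 0.820). It was -0.31 without MA replicate 3, -0.03 without MA replicate 1 and -0.05 without MA replicate 2. Of the exonic length of Bax, 12.2% is shared with another annotated gene on the same strand. Bak1, the partner that resides in the membrane permanently, had values of 2.92, 3.10 and 2.79 in Control and 2.93, 2.92 and 3.22 in MA, a difference of 0.09 (standard error 0.13, limma adjusted p = 0.867). The sign of this difference turned without MA replicate 3, to -0.0087. Reads of Bak1 are uncertain because 25.5% of its exonic length overlaps Ggnbp1 on the other strand and the sources do not state whether counting used strand. Bok, an effector that is abundant in brain, ranged from 5.90 to 6.51 in Control and from 5.86 to 6.22 in MA.

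The abundance of Bax relative to its inhibitors is often used as an index of apoptotic readiness, and is given here as a description with no test. The ratio of Bax to Bcl2 in back-transformed values was 55.1, 49.3 and 44.1 in Control and 42.6, 52.2 and 78.5 in MA. For Bax to Bcl2l1 the ratio was 2.17, 1.86 and 1.95 in Control and 1.28, 1.29 and 2.25 in MA. In both ratios MA replicate 3 was the highest of the 6 libraries, and MA replicate 1 was the lowest. For Bax to Mcl1 the ratio was 3.75, 4.05 and 3.99 in Control and 4.11, 4.11 and 6.27 in MA, higher in each MA library, with MA replicates 1 and 2 close to the Control range. The ratio of Bcl2l1 to Bcl2 was 25.4, 26.5 and 22.7 in Control and 33.3, 40.5 and 34.9 in MA, so it was higher in each MA library than in each Control library. Bcl2 is a low denominator, at 1.62 RPKM. Only the ratios of Bax to Bcl2 and to Bcl2l1, whose groups overlapped, were planned. How often ratios of other gene pairs separate the groups was not determined.

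Of the BH3-only genes, which sense damage and start the pathway, none passed either threshold. Bcl2l11 (Bim) was low, with values of 0.81, 0.88 and 0.81 in Control and 0.99, 0.82 and 0.71 in MA. The MA values lay on both sides of the Control values, and the difference was 0.0044 (standard error 0.12, limma adjusted p = 0.995). Bbc3 (Puma), a target of the tumor suppressor p53, had values of 3.19, 3.30 and 3.49 in Control and 3.19, 3.20 and 3.36 in MA, a difference of -0.08 (standard error 0.11, limma adjusted p = 0.867). Bid, which links the death receptor route to mitochondria once it is cleaved by Casp8, had values of 2.87, 2.49 and 2.41 in Control and 2.33, 2.28 and 2.39 in MA. All 3 MA values were just below the lowest Control value, and the difference was -0.26 (standard error 0.14, limma adjusted p = 0.581). It was -0.12 without Control replicate 1, the highest library, and -0.35 without Control replicate 3. Of the exonic length of Bid, 17.7% overlaps Bcl2l13 on the other strand. Bad, which is held inactive by survival signaling, was 5.20 ± 0.05 in Control and 5.33 ± 0.22 in MA (SD, n = 3 each), with MA replicate 3 the highest at 5.58. Of the exonic length of Bad, 20.5% overlaps a gene on the other strand. Bmf lay between 0.58 and 1.05 in all libraries. Bik did not pass the filter and was listed at 0 in MA replicate 1.

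Bcl2l13, a protein of the mitochondrial outer membrane that serves as a receptor for mitophagy, is singled out here after its values were seen. It had values of 3.08, 3.03 and 3.17 in Control and 3.90, 3.75 and 2.84 in MA. MA replicates 1 and 2 were well above the Control libraries and MA replicate 3 below them, and the SD over the MA libraries, 0.58, was the largest among the tested apoptosis genes. The difference was 0.40 (standard error 0.26, limma adjusted p = 0.655). Without MA replicate 3 it was 0.73 (limma adjusted p = 0.0274), without MA replicate 1 it was 0.20 (0.856) and without MA replicate 2 it was 0.28 (0.860). The end of Bcl2l13 overlaps the end of Bid on the other strand over 6.91% of its exonic length. Bcl2l12 and Bcl2l15 differed by 0.0093 and -0.0023, and parts of their exons, 33.4% for Bcl2l12, are shared with other genes.

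Among the 8 genes of the apoptosome and of mitochondrial proteins, Aifm3 and Htra2 were higher in MA at the unadjusted threshold. Aifm3, a mitochondrial relative of apoptosis-inducing factor, had values of 4.20, 4.31 and 4.41 in Control and 4.81, 4.79 and 4.94 in MA. The groups did not overlap, with a difference of 0.54 (standard error 0.09, 95% interval 0.33 to 0.76, limma adjusted p = 0.0924). Its group means were 18.8 RPKM in Control and 27.9 RPKM in MA. Without MA replicate 3 the difference of Aifm3 was 0.50 and the limma adjusted p 0.0456. The unadjusted limma p was 0.00077 in that fit, against 0.000513 with all libraries. Leaving out any other single library gave limma adjusted p-values from 0.191 to 0.421. Htra2, a serine protease that binds inhibitor of apoptosis proteins, had values of 4.23, 4.30 and 4.12 in Control and 4.54, 4.46 and 4.47 in MA. These groups did not overlap either, and the difference was 0.27 (standard error 0.09, limma adjusted p = 0.347). Htra2 is uncertain because 43.7% of its exonic length overlaps Loxl3 and Aup1 on the other strand.

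The other 6 genes of this group did not pass the unadjusted threshold. Aifm2, known as a suppressor of ferroptosis, had values of 1.28, 1.57 and 1.79 in Control and 1.85, 1.94 and 1.85 in MA. The 3 MA libraries were close together and above a wider Control group, with a difference of 0.33 (standard error 0.14, limma adjusted p = 0.481). Cycs, the electron carrier that triggers the apoptosome, had values of 6.42, 6.44 and 6.47 in Control and 6.36, 6.23 and 6.41 in MA. Its groups did not overlap, but the gap was narrow and the difference was -0.11 (standard error 0.08, limma adjusted p = 0.693). Cycs also has 2 annotated pseudogenes named for it, which could share its reads. Apaf1, the scaffold of the apoptosome, had values of 2.59, 2.25 and 2.42 in Control and 2.53, 2.56 and 2.91 in MA, and the difference was 0.25 (standard error 0.14, limma adjusted p = 0.609). Aifm1, the apoptosis-inducing factor itself, had values of 4.30, 4.29 and 4.04 in Control and 3.88, 4.14 and 4.54 in MA. Its MA values spanned the whole Control range, with a difference of -0.02 (standard error 0.17, limma adjusted p = 0.977) whose sign turned in 4 of the 6 fits that left out a library. Diablo and the nuclease Endog overlapped between the groups, with differences of -0.14 and -0.02. Exons of other genes overlap 40.9% of the exonic length of Diablo and 35.7% of that of Endog.

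None of the caspases named here passed either threshold. Casp9, the initiator of the intrinsic route, had values of 2.67, 2.69 and 2.49 in Control and 2.78, 2.60 and 2.36 in MA, with a difference of -0.03 (standard error 0.13, limma adjusted p = 0.957). Casp8, the initiator of the death receptor route, had values of 1.247, 1.17 and 1.31 in Control and 1.19, 1.05 and 1.12 in MA. The MA values lay at or below the lower part of the Control range and overlapped with it, with a difference of -0.12 (standard error 0.10, limma adjusted p = 0.739). Casp6 showed a wide spread within Control, from 1.66 to 2.52. Casp2 differed by 0.03. Casp1, an inflammatory caspase of microglia, ranged from 0.84 to 1.45 in Control and from 0.99 to 1.66 in MA, while the summed level of the microglial markers was 190 to 202 RPKM in Control and 194 to 198 RPKM in MA. Casp4 and Casp12 did not pass the filter, with highest values of 0.69 and 0.38.

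The inhibitors of apoptosis also overlapped between the groups. Xiap, the most direct inhibitor of caspases, had values of 3.49, 3.63 and 3.94 in Control and 3.84, 3.68 and 3.22 in MA. MA replicates 1 and 2 fell within the Control range and MA replicate 3 below it, with a difference of -0.11 (standard error 0.18, limma adjusted p = 0.897). Birc6, a very large ubiquitin-conjugating member, was the most abundant of them and was 5.04 ± 0.11 in Control and 4.92 ± 0.07 in MA (SD, n = 3 each). Birc2 and Birc3, ubiquitin ligases of tumor necrosis factor signaling, differed by -0.02 and 0.04. Birc5 (survivin), which acts mainly in cell division, ranged from 0.74 to 1.11 in Control and from 0.62 to 1.31 in MA. Birc7 did not pass the filter and was listed at 0 in Control replicate 2.

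Of the death receptor adaptors, Cflar showed the largest difference among the 37 genes. Cflar encodes c-FLIP, a relative of Casp8 that lacks its catalytic activity and blocks its activation. Its values were 2.90, 2.85 and 2.81 in Control and 3.31, 3.42 and 3.50 in MA. Each MA library was above each Control library, and the gap between the groups exceeded the range within either of them. The difference was 0.56 (standard error 0.09, 95% interval 0.34 to 0.78, limma adjusted p = 0.0879), with group means of 6.22 RPKM in Control and 9.66 RPKM in MA. Without MA replicate 3 the difference of Cflar was 0.51 and the limma adjusted p 0.0423. The unadjusted limma p was 0.000613 in that fit, against 0.000449 with all libraries. Over all tested genes, 257 passed the adjusted threshold there, against 35 with all libraries. Leaving out any other single library gave limma adjusted p-values from 0.142 to 0.361. The ratio of Cflar to Casp8 was 4.70, 4.95 and 4.05 in Control and 6.97, 9.13 and 8.77 in MA. This ratio was not planned, and Casp8 is a low denominator, at 1.27 RPKM. Fadd, the adaptor between receptor and Casp8, did not pass the filter, with values from 0.47 to 0.81 over the 6 libraries.

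**Figure D4:**
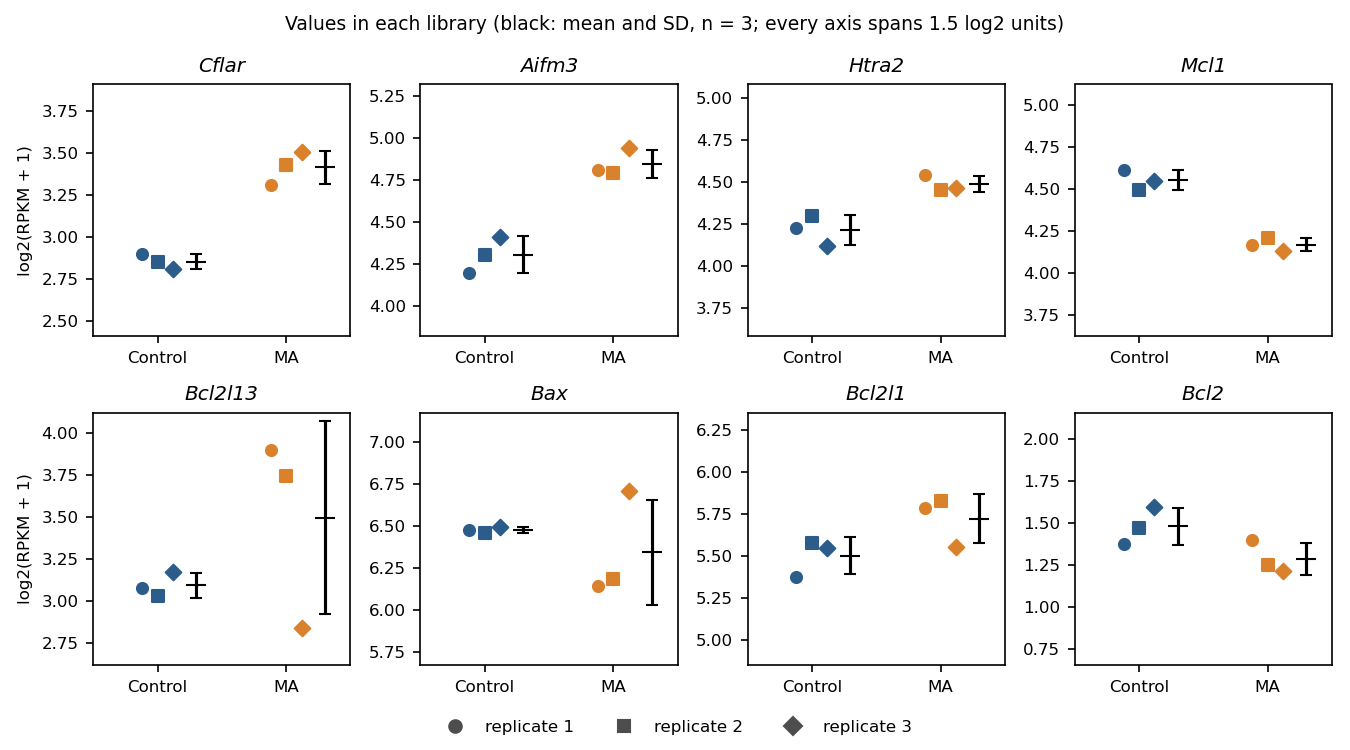
Values of 8 genes in each library as log2(RPKM + 1), with marker shapes for replicates 1 to 3 and the mean and SD of each group in black (n = 3). Cflar, Aifm3 and Htra2 are higher and Mcl1 is lower in all 3 MA libraries, whereas for Bcl2l13 and Bax MA replicate 3 lies on the far side of the Control libraries from MA replicates 1 and 2.

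The choroid plexus and erythroid markers, and the endothelial gene Cldn5, were higher in each MA library, on the same division into groups as Cflar, Aifm3, Htra2 and Mcl1. The choroid plexus gene Ttr, for example, ranged from 5.87 to 8.68 in Control and from 10.77 to 12.298 in MA on the log2 scale. The highest of these values was the maximum shared by all libraries. The part of RNA from these cell types in the differences of the apoptosis genes was not tested. Cflar, Aifm3 and Mcl1 share no exonic sequence with another annotated gene. In GENCODE M21 on GRCm38, Cflar lies on chromosome 1 from 58711508 to 58758884, Aifm3 on chromosome 16 from 17489611 to 17507485, Mcl1 on chromosome 3 from 95658788 to 95663176 and Htra2 on chromosome 6 from 83051266 to 83055273. These positions serve for location only, since the submitters' processing notes name mm8 and mm9 without saying which was used for these values.

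The promoters of the 3 genes with the smallest unadjusted p are shown for context, from 250 bases before to 50 bases after the RefSeq start, 5′ to 3′ on the plus strand of GRCm38.p6. They span chr3:95658471-95658770 for Mcl1, chr1:58711241-58711540 for Cflar and chr16:17489427-17489726 for Aifm3. Capitals mark every match, on either strand and with overlaps counted, to the GC box GGGCGG, the CREB half-site TGACG, the CCAAT box CCAAT and the AP-1 site TGACTCA.
Mcl1: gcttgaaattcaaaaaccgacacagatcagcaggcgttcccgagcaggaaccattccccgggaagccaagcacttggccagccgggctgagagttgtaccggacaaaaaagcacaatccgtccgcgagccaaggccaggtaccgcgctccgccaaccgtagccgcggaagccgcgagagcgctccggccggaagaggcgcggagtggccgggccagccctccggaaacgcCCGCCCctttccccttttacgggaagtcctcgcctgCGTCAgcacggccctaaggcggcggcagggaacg
Cflar: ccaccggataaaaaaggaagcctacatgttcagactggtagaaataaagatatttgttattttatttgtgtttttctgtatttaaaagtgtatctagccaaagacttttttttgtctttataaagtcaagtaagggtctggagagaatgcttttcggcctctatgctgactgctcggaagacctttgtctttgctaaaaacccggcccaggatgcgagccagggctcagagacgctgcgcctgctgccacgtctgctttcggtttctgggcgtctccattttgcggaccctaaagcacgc
Aifm3: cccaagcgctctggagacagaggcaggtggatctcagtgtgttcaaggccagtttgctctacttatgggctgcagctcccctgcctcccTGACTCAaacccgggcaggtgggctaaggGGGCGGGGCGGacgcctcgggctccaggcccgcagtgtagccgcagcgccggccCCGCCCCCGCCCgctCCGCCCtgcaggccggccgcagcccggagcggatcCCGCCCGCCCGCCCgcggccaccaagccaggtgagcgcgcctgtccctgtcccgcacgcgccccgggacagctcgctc
The window of Mcl1 held 1 GC box and 1 CREB half-site and had a GC content of 65.7%. That of Aifm3 held 8 GC boxes and 1 AP-1 site at a GC content of 74.0%, and that of Cflar held none of these motifs at 45%. Of all 32851 promoters in the RefSeq table, 35.7% held the GC box, 20.8% the CREB half-site, 37.4% the CCAAT box and 5.20% the AP-1 site. Of the 44 apoptosis genes, 40 had a promoter in the table.

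The libraries of the MA group differed among themselves in many of these genes. The SD over the MA libraries exceeded that over the Control libraries for 22 of 37 genes, or 59.5%, against 71.1% of all tested genes. MA replicate 3 was the outermost MA library for 20 genes, or 54.1%, against 58.3% of all tested genes. For 13 genes, or 35.1% against 36.2% over all, MA replicate 3 lay on the other side of the Control mean from MA replicates 1 and 2. Bax, Aifm1 and Birc5 were among those where replicate 3 was higher, and Bcl2l13 and Bcl2l2 among those where it was lower. Leaving out MA replicate 3 raised the number of apoptosis genes past the adjusted threshold from 0 to 3 (Cflar, Aifm3 and Bcl2l13), or 8.11% against 1.93% of all tested genes. The differences of Cflar and Aifm3 were smaller in that fit and their unadjusted limma p-values were not lower. At the unadjusted threshold the number rose from 4 to 9, or 24.3% against 23.3% of all tested genes. With limma's sample quality weights, which lower the influence of deviating libraries, 4 genes (10.8%, against 4.4% of all tested genes) passed the adjusted and 10 (27.0%, against 26.3%) the unadjusted threshold. Without MA replicate 3, Bax, with a limma adjusted p of 0.0524, was among the 9 genes at the unadjusted threshold.

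**Figure D5:**
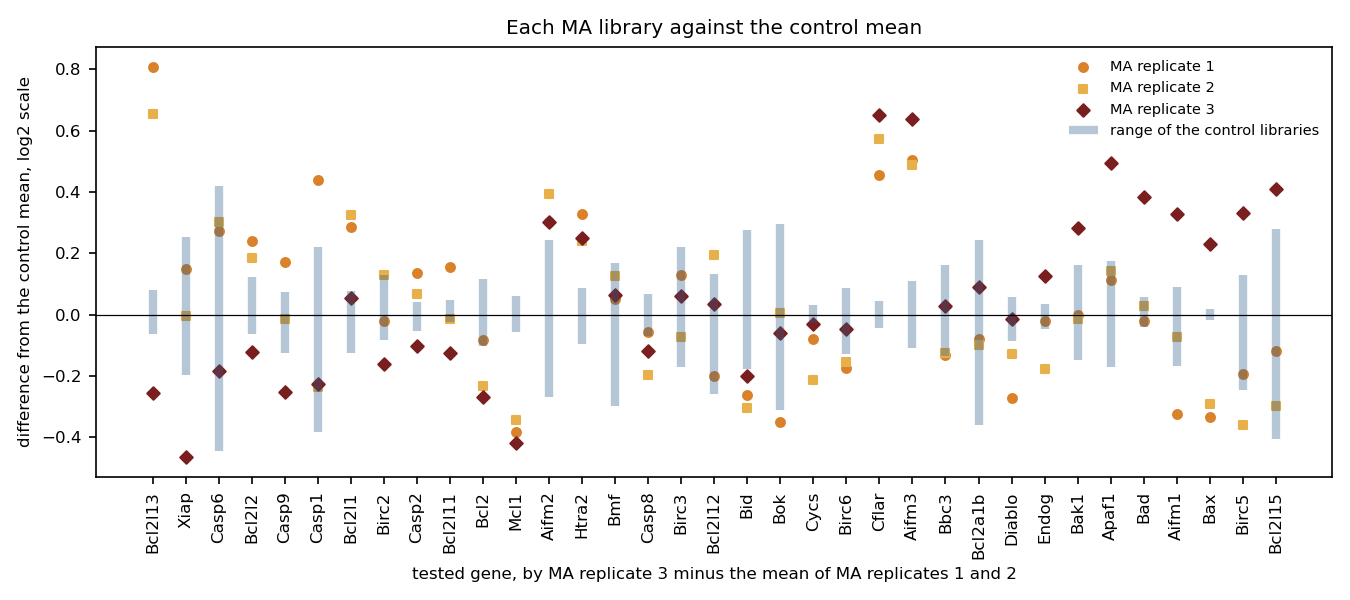
Each MA library minus the Control mean on the log2 scale for 35 of the tested apoptosis genes, ordered by MA replicate 3 minus the mean of MA replicates 1 and 2, with bars for the range of the Control libraries. Bcl2l13 and Xiap on the left and Bax, Birc5 and Bcl2l15 on the right have MA replicate 3 far from the other MA libraries, while for Cflar, Aifm3, Htra2 and Mcl1 the 3 MA libraries share a direction.

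Genes upstream and downstream of these proteins were examined as 9 lists with 65 tested genes. None of the 65 passed the adjusted threshold (limma), and 5, or 7.69%, passed the unadjusted one, against 10.4% of all tested genes. Of p53 and its targets, 14 were tested, with a median difference of -0.014. Perp, a membrane protein induced by p53, was the gene of this list past the unadjusted threshold, with values of 1.55, 1.74 and 1.58 in Control and 2.20, 2.12 and 2.35 in MA. Its groups did not overlap, and the difference was 0.60 (standard error 0.11, limma adjusted p = 0.127). Trp53, the p53 gene, differed by -0.04, and its targets Mdm2 and Cdkn1a by -0.23 and 0.50 with overlapping groups.

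The 8 tested genes of the list that links endoplasmic reticulum stress to apoptosis had a median difference of -0.15, with 6 below 0, of which only Atf4 passed the unadjusted threshold. Atf4, a transcription factor of the integrated stress response, had values of 6.28, 6.19 and 6.19 in Control and 5.91, 5.95 and 6.09 in MA, without overlap. Its difference was -0.23 (standard error 0.08, limma adjusted p = 0.383). Ddit3 (Chop), its pro-apoptotic partner, differed by -0.36 with overlapping groups (limma adjusted p = 0.516).

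Among 11 caspase substrates and DNA fragmentation genes, 9 had a difference below 0, of which only Rock1 passed the unadjusted threshold, and the median was -0.07. Over all tested genes, 7023 of 13321 had a difference below 0. Rock1, a kinase cleaved in apoptosis that drives membrane blebbing, was 2.29 ± 0.09 in Control and 1.96 ± 0.09 in MA (SD, n = 3 each), with a difference of -0.33 and a limma adjusted p of 0.350. Dffb, the nuclease that cuts DNA between nucleosomes, was 2.16 ± 0.11 and 2.44 ± 0.15, with a difference of 0.28 and a limma adjusted p of 0.473. Rock1 had groups that did not overlap, and for Dffb the lowest MA value, 2.268, exceeded the highest Control value, 2.267, by less than 0.01.

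The 9 tested death receptors, ligands and complex members had a median of -0.05. Tnfrsf25, a death receptor best known from lymphocytes, had values of 3.996, 3.43 and 2.77 in Control and 1.95, 2.35 and 3.06 in MA. The groups overlapped through Control replicate 3 and MA replicate 3, with a difference of -0.95 (standard error 0.36, limma adjusted p = 0.435). The 7 BH3-only and BNIP genes outside the symbol rule, the 6 mitochondrial pore proteins, the 6 BAG regulators and the 4 tested inflammasome genes had no gene past the unadjusted threshold. Their medians were 0.06, -0.03, -0.04 and 0.02. Among the BH3-only genes outside the rule, Pmaip1 (Noxa) differed by -0.38 and Hrk by 0.0093, both with overlapping groups. None of the 4 NAIP genes passed the filter on low values.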

How the data were processed

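Hippocampal RNA-seq of 3 Control and 3 MA mice was analysed from the table the authors deposited, which is named as RPKM and holds log2 values with a shared maximum in all 6 libraries. The paper's methods name Hisat2, featureCounts and conversion to FPKM, the submitters' processing notes name Bowtie 0.12.2, mm8 and mm9, and the log transform and normalization between libraries are not described. The labels and the methods also name different extraction and library kits. Base 2 and an offset of 1 were inferred. With base 2, back-transformed values times exonic length in kilobases summed to between 1777000 and 1884000 per library. With base e the sums were between 18180000 and 19580000. The base 2 sums lay closer to, though still above, the total that RPKM implies. The offset was inferred from the lowest value and not from these sums.

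Genes of at least 0.5 RPKM in at least 3 libraries were tested with limma 3.58.1 in R 4.3.3 (lmFit, eBayes with a trend), without covariates, with Benjamini-Hochberg adjustment at 0.05 over 13321 genes. The fit was tested on simulated data with equal spread in both groups and planted changes larger than that of any tested apoptosis gene. That test therefore does not measure how well changes of the size seen here are found. An exact permutation test of 3 against 3 libraries cannot give a p under 0.1. All values are printed for genes past the unadjusted threshold, with separate groups, or among 15 genes listed as central to the pathway, and up to 3 genes per list past the unadjusted threshold are named. Some genes are not reported here, and counts include them. The genes and lists were chosen with earlier results of these data known. Exon overlap was taken from GENCODE M21, where 44 of 44 genes were found by identifier. Of these, 17 shared exonic sequence with another gene, on the same or the other strand.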

Additional observations from a re-analysis of the deposited data

How the results depend on the processing

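The differences of Cflar (0.51 to 0.63), Aifm3 (0.49 to 0.60), Htra2 (0.22 to 0.31) and Mcl1 (-0.41 to -0.35) kept their sign in all 15 alternatives, and their limma adjusted p-values ranged from 0.0137 to 0.449, 0.0191 to 0.421, 0.0884 to 0.802 and 0.0337 to 0.632. With limma's sample quality weights 4 apoptosis genes (Cflar, Aifm3, Mcl1 and Bcl2l13) passed the adjusted threshold and 10 the unadjusted one, 7 higher and 3 lower, while 586 and 3504 of all genes did, or 4.4% and 26.3%, and Perp (adjusted p = 0.0319) and Atf4 (0.0476) also passed. Leaving out 1 library in turn gave 0 to 3 apoptosis genes at the adjusted and 4 to 9 at the unadjusted threshold, with 3 to 7 higher and 1 to 2 lower, 7 to 15 without overlap, 24 to 27 with intervals within 1.5-fold and a median from -0.0401 to 0.0275. Over all genes these fits gave 0 to 257 at the adjusted and 829 to 3103 at the unadjusted threshold. Shares over all genes by direction, without overlap and within 1.5-fold were not determined in these fits or the other alternatives. Those counts are therefore no result about the apoptosis genes. Groups of 3 and 2 libraries also separate more readily than groups of 3 and 3. The highest counts of genes past either threshold and of genes without overlap came without MA replicate 3, and 12 genes did not overlap without Control replicate 3. Over all genes, 3 passed the adjusted threshold with no filter and 20 with a minimum mean of 5, where 844 passed the unadjusted one. Intervals within 1.5-fold numbered 19 and 16 with pseudocounts of 0.1 and 0.01, and 17 of 20 genes with a minimum mean of 5. The cause was not tested in any of these cases. With the replicate number as a block, 0 apoptosis genes passed the adjusted threshold and 3 the unadjusted one, and 15 and 842 of all genes did. Same-numbered libraries did not deviate together (correlations of -0.197, -0.242 and -0.337 across genes), and the block changed no call of an apoptosis gene at the adjusted threshold. Differences near 0 changed sign: Bcl2l11 was -0.0017 with a pseudocount of 0.01 and -0.0067 with quantile normalization, and with quality weights Bak1 was -0.022, Casp9 0.010 and Xiap 0.013. Leaving out 1 library gave from -0.20 to 0.13 for Aifm1, -0.0087 to 0.17 for Bak1, -0.14 to 0.0049 for Bbc3, -0.070 to 0.069 for Bcl2l11, -0.13 to 0.077 for Casp9 and -0.23 to 0.072 for Xiap. Without counts, the depth behind the low genes is unknown, and Bcl2l11, Bmf and the 7 genes under the filter are the least certain.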

Other observations

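Genes of necroptosis and pyroptosis, forms of cell death that run beside the caspases described above, lay mostly under the filter on low values and were not tested. Ripk3, the kinase of necroptosis, had values from 0.17 to 0.32 in the libraries labelled Control and from 0.036 to 0.16 in those labelled MA. Mlkl, its effector, ranged from 0.27 to 0.70 and from 0.10 to 0.19. Both were lower in each MA library, on levels at which the depth behind a value is unknown. Il1b, a cytokine that Casp1 matures, was also under the filter, with values from 0.052 to 0.063 in Control and, higher in each library, from 0.082 to 0.21 in MA. Naip2, an inflammasome sensor, ranged from 0.14 to 0.22 and from 0.27 to 0.29. These genes are named because their groups did not overlap, chosen after their values were seen, as were Tnfsf10 (higher in each MA library) and Tnfrsf10b (lower). Of all tested genes, 17.5% had groups that did not overlap, and the share among genes under the filter was not determined. Naip1, Naip5, Naip6, Nlrp3, Nlrp1b, Nlrc4, Fasl and Ngfr, also under the filter in the same lists, had overlapping groups. Among the tested genes, Il18 differed by -0.08, Pycard by 0.25 and Gsdmd by 0.13, each with overlapping groups.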
